A study of Xiphophorus maculatus x Xiphophorus hellerii with 32 samples.

Results

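HSP90AB1 and CALR3_1of2 are 2 of the 20499 transcript rows counted in skin and melanoma of hybrid fish, and are picked out here by their row names. Both were among the 20 rows with a gene symbol that had enough counts to be tested, out of 30 with a symbol. The fish were 9-month-old, melanoma-bearing first-generation backcross (BC1) offspring from a cross of 2 species, Xiphophorus maculatus (the platyfish) and Xiphophorus hellerii (a swordtail). There were 16 skin and 16 spontaneous melanoma libraries, each from 1 tissue of 1 fish, and 14 fish gave both. All fish carried a tumor, so the skin is that of tumor-bearing hybrids, and no tumor-free group enters any comparison. Each hybrid can hold a different set of parental alleles. Fish names consist of a title number and a letter (11949a); the sources used here do not say what the title number stands for. The title numbers 11935, 11949 and 11963 had at least 3 libraries of each tissue.

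HSP90AB1 encodes the constitutively made HSP90 of the cytosol, an ATP-driven chaperone that in vertebrates holds many kinases, growth factor receptors and steroid receptors in a form that can be activated. Calreticulin is a calcium-binding lectin of the endoplasmic reticulum that helps newly made glycoproteins to fold. CALR3_1of2 is named as copy 1 of 2 of the calreticulin-like gene CALR3, which in mammals is known mainly from the testis. No source used here gives its role in these fish. In melanoma of the platyfish-swordtail cross the driver is Xmrk, a mutated duplicate of an epidermal growth factor receptor gene, and receptors of this family are known HSP90 clients in mammals.

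Library totals ran from 4239036 to 6673975 counts in skin and from 2578877 to 6977222 in melanoma. Levels below are TMM-scaled CPM (counts scaled to a common library total), which are not corrected for transcript length, so they are compared between samples and not between genes. Xmrk, the check on the tumor label, was higher in the melanoma than in the skin of 14 of 14 fish, by 1.76-fold to 22-fold. Marker lists for pigment cells, keratinocytes, muscle, blood and immune cells, fibroblasts and endothelium matched 0 rows with a symbol. Cell makeup was therefore not measured, and in these bulk samples fewer cells of a type and less RNA per cell cannot be told apart.

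HSP90AB1 was lower in the melanoma than in the skin of every fish with both tissues. In the 16 skins it lay at a lowest value of 4369 CPM (11960a), a median of 6312 CPM and a highest value of 10600.35 CPM (11949a). In the 16 melanomas the lowest value was 2766 CPM, in a column whose name matches no sample title, the median was 3793 CPM and the highest was 4584 CPM (11949c). The ranges met only at their edges, since 3 of the 16 skins lay below the highest melanoma and 4 of the 16 melanomas above the lowest skin. The mean fell from 6454 ± 1789 to 3789 ± 591 CPM (SD, n = 16 each), a fitted log2 fold change of -0.77 (95% interval -1.02 to -0.51, edgeR adjusted p = 1.54e-05), or 41.3% lower. Of the 14542 rows tested, 12.3% were called lower in melanoma and 11.2% higher, and 10.9% of the rows had a fold change as low as that of HSP90AB1 or lower.

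CALR3_1of2 did not pass the test between tissues, and its direction differed between fish. Its lowest, median and highest levels were 79.7 CPM (11963g), 141 CPM and 288 CPM (11960a) in skin. In melanoma they were 118 CPM (11949l), 166 CPM and 253 CPM (11963a). The groups overlapped almost throughout: 14 of 16 skins lay below the highest melanoma, and 16 of 16 melanomas lay above the lowest skin. The means were 151 ± 64.9 CPM in skin and 178 ± 46.9 CPM in melanoma (SD, n = 16 each), with a log2 fold change of 0.23 (95% interval -0.12 to 0.59, edgeR adjusted p = 0.375). Over all rows 23.5% were called in either direction. In a voom fit with the fish as a random effect it passed, at 0.27 (limma adjusted p = 0.0353), where 50% of all rows were called. With the fish as a block it did not (0.23, edgeR adjusted p = 0.138), where 46.2% were.

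**Figure D1:**
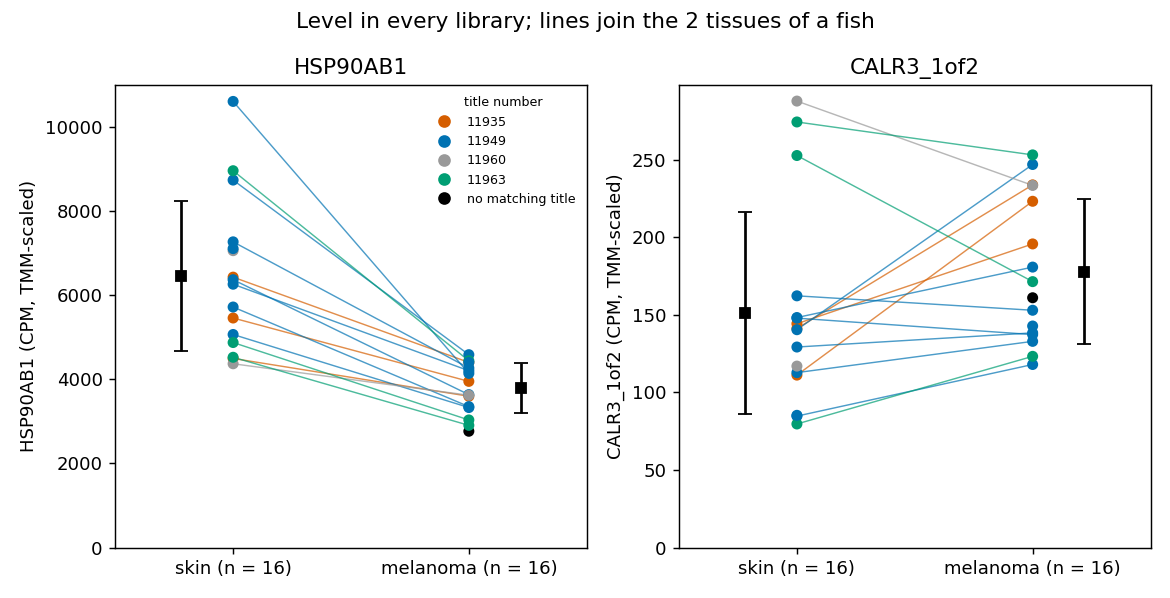
Levels of HSP90AB1 (left) and CALR3_1of2 (right) in CPM, with 1 point per library coloured by title number, lines joining the skin and melanoma of a fish, and squares with bars for mean ± SD (n = 16 per tissue). Every HSP90AB1 line falls, whereas the CALR3_1of2 lines run in both directions.

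Within fish, the fall of HSP90AB1 varied in size. The level in skin was at a median 1.58 times that in melanoma of the same fish. The smallest ratio was 1.21, in 11960a (4369 CPM in skin, 3621 CPM in melanoma), and the largest was 2.56, in 11949a (10600.35 and 4140.03 CPM). Before scaling, 11949a held 33289 of 4239036 counts in skin and 29075 of 5813901 in melanoma. These ratios include the TMM factors, and the order of the fish depended on them. With counts divided by library totals alone, the largest ratio was in 11963g (46289 of 5932262 in skin, 20672 of 5693167 in melanoma). The smallest was then in 11949g (29434 of 5181510 in skin, 25328 of 5246293 in melanoma). HSP90AB1 was lower in melanoma in 14 of 14 fish, which held for 6.71% of all rows tested. In TMM-scaled levels the fish with the highest skins, 11949a, 11963g and 11949c, also had the 3 largest ratios, 2.56, 2.02 and 1.90. The skin level itself enters these ratios, and without the factors 11949a and 11949c were not among the 3 largest.

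CALR3_1of2 was higher in the melanoma of 9 fish and lower in that of 5. The largest rise was in 11935f, from 111 to 223 CPM, a ratio of 2.01. It also stood higher in the melanoma of 11949c (140 and 247 CPM) and 11935d (141 and 234 CPM). The lowest ratio was 0.678, in 11963d, where it went from 253 CPM in skin to 171 CPM in melanoma. The spread of these differences, with rises and falls inside the same title number, was larger than their mean.

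**Figure D2:**
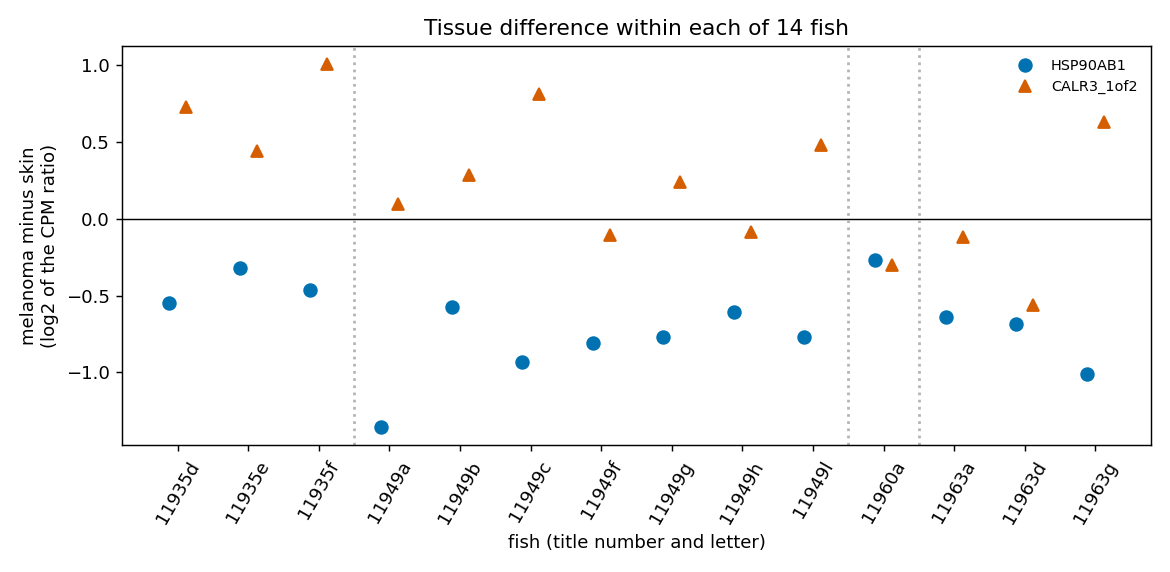
Difference between melanoma and skin within each of the 14 fish, as log2 of the CPM ratio, for HSP90AB1 (circles) and CALR3_1of2 (triangles); dotted lines separate title numbers. All 14 circles lie below 0, against 5 of the 14 triangles.

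The unequal change of the 2 rows was tested on their ratio within a library, which needs no scaling between libraries. For each count of CALR3_1of2 there were 15.2 (11960a) to 112 (11963g) counts of HSP90AB1 in skin, with a median of 47.3. In melanoma there were 11.5 (11963a) to 36.0 (11963g), with a median of 20.3. The ratio was lower in the melanoma of 13 of 14 fish, and in 11960a it was higher by 0.03 on the log2 scale. It was on average 1.93-fold lower, a log2 difference of -0.95 ± 0.55 (SD, n = 14, two-sided exact sign-flip permutation test, p = 2.44e-04). In the 7 fish of 11949 it was lower in 7 of 7, by a mean log2 difference of -1.08 ± 0.43 (SD, exact p = 0.0156, the smallest that 7 fish can give). The fall of HSP90AB1 in 14 of 14 fish enters this ratio, and ratios of HSP90AB1 to other rows were not examined.

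In TMM-scaled levels, skins differed from each other in HSP90AB1 more than melanomas did. The coefficient of variation was 27.7% in skin and 15.6% in melanoma (n = 16 each). The counting error at the smallest HSP90AB1 count, 10643, is 0.969%. Over the 14 fish with both tissues the SD of log2 CPM was 0.403 in skin and 0.210 in melanoma, a ratio of 1.91. In a permutation of the tissues within fish, after centring each tissue on its mean, the two-sided unadjusted p was 0.0167 (1 of 2 such tests). Centring on estimated means makes the p of this test approximate. The test did not pass without 11949a (p = 0.0649), 11949c (p = 0.0505) or 11963g (p = 0.0520). With DESeq2-type size factors the ratio was 1.95 (permutation p = 0.00977). Divided by library totals alone, the lowest and highest levels were those of 11949l and 11949a in both tissues. In skin they were 23333 of 5525959 and 33289 of 4239036 counts. In melanoma they were 15245 of 5933067 and 29075 of 5813901, a fold range no narrower than that of skin. The wider range in skin was thus seen only with the scaling factors, and the SDs without them were not tested. In the 7 fish of 11949 the ratio of SDs, with TMM factors, was 2.01 (permutation p = 0.0781). Over all rows tested the median log2 ratio of these SDs was 0.03, that of HSP90AB1 was 0.94, and 1.36% of rows had a higher one. These ratios were not compared among rows of like count, so this share does not single out HSP90AB1. CALR3_1of2 varied by 42.9% in skin and 26.4% in melanoma, and its SD ratio of 1.42 did not pass (permutation p = 0.120). In 11949 alone its ratio was 0.893, with the melanomas varying more.

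Among title numbers with at least 3 libraries of each tissue and ordered by mean, HSP90AB1 stood highest in the skin of 11949, at 7138 ± 1782 CPM (SD, n = 8). The skins of 11963 followed, at 4522, 4873 and 8954 CPM, and then those of 11935, at 6426, 4495 and 5456 CPM. The skins of 11960 stood at 4369 and 7055 CPM. These skins overlapped, and neighbours in the order lay within their spread. The melanomas of these title numbers came after their skins, with 3988 ± 484 CPM in 11949 (SD, n = 8) and 3983 ± 403 CPM in 11935 (SD, n = 3). The melanomas of 11963 were lowest, at 2906, 3034 and 4440 CPM. The title number did not pass as a joint term in skin (edgeR adjusted p = 0.953) or in melanoma (adjusted p = 0.914, edgeR). That test called 0 of 15577 rows in skin (920 with an unadjusted p under 0.05) and 0.00636% of rows in melanoma.

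For CALR3_1of2 the order of title numbers was different. Among title numbers with at least 3 libraries of each tissue, its mean was highest in the melanomas of 11935, where the levels were 234, 196 and 223 CPM. The skins of 11935 stood at 141, 144 and 111 CPM. In 11963 the skins of 11963a and 11963d stood at 274 and 253 CPM and that of 11963g at 79.7 CPM, the lowest of all skins. The melanomas of the same fish stood at 253, 171 and 123 CPM. The 8 skins of 11949 averaged 126 ± 29.4 CPM and its 8 melanomas 156 ± 40.9 CPM (SD). The title number did not pass in skin (edgeR adjusted p = 0.905) or in melanoma (edgeR adjusted p = 0.760).

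Fitted within title numbers, the difference between tissues of HSP90AB1 had the same sign in all of them and passed in the largest. In 11949 its log2 fold change was -0.86 (SE 0.19, edgeR adjusted p = 0.00507), where 12.7% of all rows were called. In 11935 it was -0.47 (95% interval -0.98 to 0.05, edgeR adjusted p = 0.469). There edgeR called 0% of rows, with an unadjusted p under 0.05 for 1746, while DESeq2 called 608. In 11963 it was -0.79 (95% interval -1.68 to 0.11, edgeR adjusted p = 0.654), where 0.399% of rows were called (58 by edgeR, 637 by DESeq2). It was -0.43 without the skin of 11963g. With the fish as a block HSP90AB1 was at -0.75 in 11963 (95% interval -1.24 to -0.26, edgeR adjusted p = 0.0872), where 7.87% of rows were called. The block gave -0.45 in 11935 (-0.98 to 0.07, edgeR adjusted p = 0.200), where 10.1% were called. In 11949 it gave -0.85 (edgeR adjusted p = 0.00891), where 27.7% were called. In the only pair of 11960, HSP90AB1 was 4369 CPM in skin and 3621 CPM in melanoma.

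For CALR3_1of2 the log2 fold change was 0.28 in 11949 (SE 0.20, edgeR adjusted p = 0.427) and 0.71 in 11935 (95% interval 0.15 to 1.26, unadjusted p = 0.0199, edgeR adjusted p = 0.324). In 11963 it was -0.13 (95% interval -1.39 to 1.13, adjusted p = 0.9997 in edgeR). It became 0.17, 0.05 and 0.07 without the skin of 11963a, the skin of 11963d or the melanoma of 11963g. With the fish as a block the log2 fold change was 0.71 in 11935 (95% interval 0.27 to 1.16, edgeR adjusted p = 0.0610). The block gave 0.22 in 11949 (edgeR adjusted p = 0.291) and 0.0077 in 11963 (edgeR adjusted p = 0.992).

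An interaction term tested whether these tissue differences varied with the title number. For HSP90AB1 the tissue difference of 11935 lay 0.39 above that of 11949 on the log2 scale (95% interval -0.31 to 1.10, edgeR unadjusted p = 0.266), and that of 11963 lay 0.02 above it (-0.69 to 0.72, unadjusted p = 0.959). For CALR3_1of2 the distances from 11949 were 0.42 for 11935 (-0.48 to 1.32, edgeR unadjusted p = 0.349) and -0.48 for 11963 (-1.38 to 0.43, unadjusted p = 0.288). Neither row passed after adjustment. Of 14568 rows edgeR called 0 in either interaction, with an unadjusted p under 0.05 for 115 and 111, and DESeq2 also called 0. With the fish as a block the distances of CALR3_1of2 were 0.49 for 11935 (-0.12 to 1.09) and -0.27 for 11963 (-0.88 to 0.34), and those of HSP90AB1 were 0.40 (-0.14 to 0.94) and 0.05 (-0.49 to 0.59).

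CALR3_1of2 differed between fish over both tissues, as did most rows tested. Its mean log2 CPM over the tissues of a fish ran from 6.61 in 11949l (84.8 CPM in skin, 118 CPM in melanoma) to 8.04 in 11963a (274 and 253 CPM). This span of 1.43 passed the fish test (edgeR adjusted p = 0.00964), as did 79.4% of all rows. It was below the median span over all rows, 2.12, and 19.5% of rows had a smaller one. Within the 7 paired fish of 11949 the span was 0.86 and did not pass (edgeR adjusted p = 0.173), while 56% of rows did. HSP90AB1 spanned 0.88, from 11963a to 11949a, and did not pass (edgeR adjusted p = 0.0553). A smaller span than that of HSP90AB1 was held by 2.97% of rows. HSP90AB1 ranked 14 of all rows by total count, with 900919 counts, and CALR3_1of2 had 30512, against a median of 3153 over tested rows. Counting noise widens the span of rows with few counts. Spans were not compared among rows of like count, so these shares do not single out either row as steady between fish.

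The skin and the melanoma of a fish held HSP90AB1 in a similar order. Over 14 fish the log2 levels correlated at Pearson r = 0.748 (permutation p = 0.00268, adjusted p = 0.0241 over 9 correlations) and Spearman rho = 0.780 (permutation p = 0.00170, adjusted p = 0.0153). Without 11949a and 11963g, the fish farthest from the median skin, r was 0.774. In the 7 fish of 11949 it was 0.744 (exact permutation p = 0.0599). This is close to what rows in general showed, since the median same-fish r over all tested rows was 0.711 and 43.7% of rows had a higher one. For CALR3_1of2 r was 0.598 (permutation p = 0.0258, adjusted p = 0.0773) and rho 0.525 (permutation p = 0.0563, adjusted p = 0.169). It was 0.400 without 11960a and 11963a (permutation p = 0.200, n = 12) and 0.540 in 11949 (exact permutation p = 0.217, n = 7), so the relation did not pass in either smaller set. Over all tested rows 64.6% had a higher same-fish r than CALR3_1of2 over the 14 fish.

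Across the 16 skins, libraries high in HSP90AB1 tended to be low in CALR3_1of2. The skins of 11960a, 11963a and 11963d held the 3 highest CALR3_1of2 levels, 288, 274 and 253 CPM, with HSP90AB1 at 4369, 4522 and 4873 CPM. The skin of 11963g, with the least CALR3_1of2, held 8954 CPM of HSP90AB1. Pearson r was -0.610 (permutation p = 0.0119, adjusted p = 0.0535 over 9 correlations) and Spearman rho -0.662 (permutation p = 0.00598, adjusted p = 0.0269), and r was -0.621 without 11949a and 11960a. The rho no longer passed the adjustment with DESeq2-type size factors (-0.606, permutation adjusted p = 0.0645) or without those libraries (-0.635, permutation adjusted p = 0.0771). The relation did not hold within the 8 skins of 11949, where r was -0.03 (exact permutation p = 0.951) and rho -0.286 (exact permutation p = 0.501). The title numbers 11935, 11960 and 11963 hold too few skins for a value. Across the 16 melanomas r was -0.05 (permutation p = 0.861) and rho -0.06 (permutation p = 0.841), and the difference between the tissues in this relation was not tested. Over 14 fish the tissue differences of the 2 rows correlated at r = -0.06 (permutation p = 0.837) and rho = -0.05 (permutation p = 0.867).

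**Figure D3:**
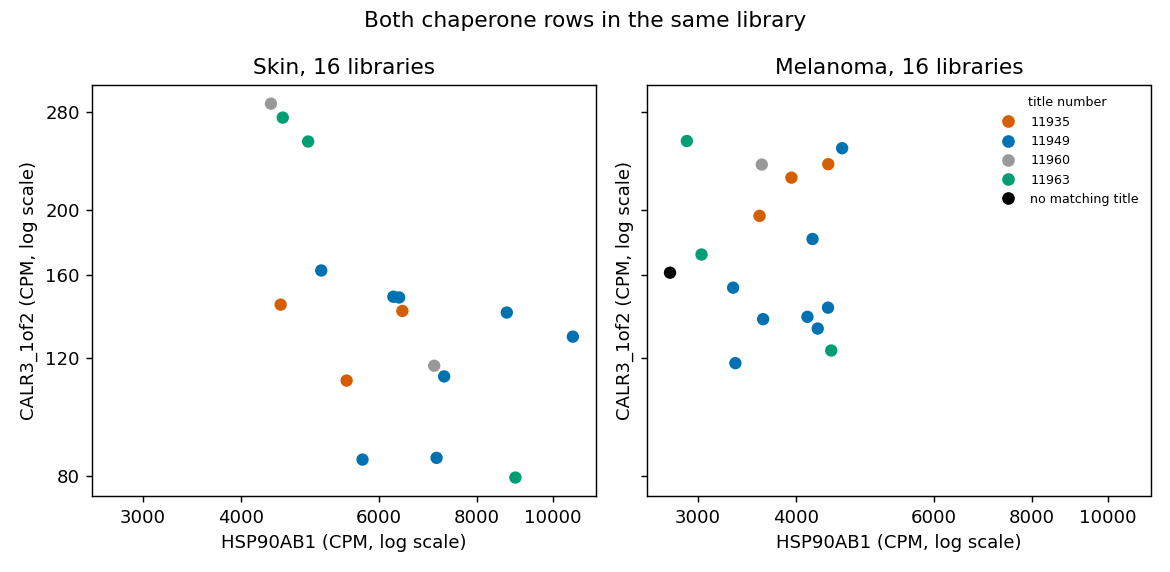
HSP90AB1 (horizontal) against CALR3_1of2 (vertical) in the same library, in CPM on log scales, for 16 skins (left) and 16 melanomas (right), coloured by title number. In skin the points fall from upper left to lower right (r = -0.610), mainly through the 11960 and 11963 skins, and in melanoma they show no such order (r = -0.05).

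Of the genes that surround HSP90 and calreticulin in the cell, few could be read by name. A list of other HSP90 genes and HSP90 partners (heat shock proteins, co-chaperones and their regulator HSF1) matched 0 of 22 genes. The list of endoplasmic reticulum chaperones matched 1 of 22, CALR3_1of2 itself. Of 13 listed receptors and kinases, Xmrk and FGFR4 were present. That list holds genes known as HSP90 clients in mammals, to which the fish receptor Xmrk was added. Xmrk was 8.11-fold higher in melanoma (edgeR adjusted p = 1.55e-11). FGFR4, a fibroblast growth factor receptor, had a log2 fold change of 0.22 (SE 0.28, edgeR adjusted p = 0.625). The tissue differences of HSP90AB1 and Xmrk did not pass a test of correlation, with r = -0.190 (permutation p = 0.517, adjusted p = 0.916, n = 14) and rho = -0.218 (permutation p = 0.453). The r was 0.102 without 11935d and 11935e and 0.440 in 11949 (exact permutation p = 0.317, n = 7). In 11949 rho was 0.714 (exact permutation p = 0.0881). The tissue differences of CALR3_1of2 and Xmrk had r = -0.03 (permutation p = 0.916) and rho = 0.112 (permutation p = 0.703). In 11949 they had r = -0.427 (exact permutation p = 0.336, n = 7) and rho = -0.214 (exact permutation p = 0.662).

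Across the 16 melanomas, HSP90AB1 and Xmrk levels correlated at r = -0.08 (permutation p = 0.770) and rho = 0.006 (permutation p = 0.987). CALR3_1of2 and Xmrk correlated at r = -0.446 (permutation p = 0.0839, adjusted p = 0.189) and rho = -0.379 (permutation p = 0.148), and at r = -0.308 without 11935d and 11935e. In the 8 melanomas of 11949 these r were -0.276 (exact permutation p = 0.504) for HSP90AB1 and -0.183 (exact permutation p = 0.657) for CALR3_1of2. The rho there were -0.095 (exact permutation p = 0.840) for HSP90AB1 and, with the opposite sign to r, 0.262 (exact permutation p = 0.536) for CALR3_1of2.

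Likeness to each chaperone row was measured as Pearson r of log2 CPM over all 32 libraries, which mixes the difference between tissues with that between fish. Among rows with a symbol, the most like HSP90AB1 was LDHB_1of2, which codes for a lactate dehydrogenase subunit (r = 0.756). It followed HSP90AB1 within skin (r = 0.732) more closely than within melanoma (r = 0.157), and 140 of 14541 rows had a higher r. CHD4_2of2, a copy of a chromatin remodelling ATPase gene, had r = 0.496, with 0.04 within skin and 0.235 within melanoma, and 1258 rows had a higher r. CYP1A1, a xenobiotic-metabolising enzyme, had r = 0.453, with -0.08 in skin and 0.553 in melanoma, and 1558 rows had a higher r.

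Among rows with a symbol, CALR3_1of2 was most like AP1M1, a subunit of a clathrin adaptor (r = 0.620, 0.70 within skin and 0.298 within melanoma). Of 14541 rows, 307 had a higher r than AP1M1. CSNK1A1, a casein kinase, followed among rows with a symbol with r = 0.575, similar within skin (0.500) and within melanoma (0.577), and 508 rows had a higher r. GSTM3, a glutathione S-transferase, had r = 0.366, with 2282 rows higher. The rows between and above these carry transcript identifiers for which the table holds no gene name. Of these, ENSXMAT00000007455 (r = 0.898 with HSP90AB1) fell in melanoma by 0.52 on the log2 scale (edgeR adjusted p = 0.00347). ENSXMAT00000003549 (r = 0.890 with CALR3_1of2) had a log2 fold change of 0.61 that did not pass (edgeR adjusted p = 0.356).

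The rows nearest to the chaperones shared more than a pattern, and these were examined after their values were seen. ENSXMAT00000017391 followed HSP90AB1 at r = 0.999 over the 32 libraries. In both tissues of 11935e, 11949h, 11949l and 11963a its count was that of HSP90AB1 to the read, with 7 of 8 libraries equal and the remaining library, the skin of 11935e, differing by 1 (28220 and 28221 counts). In the skin of 11949h both rows held 35107 counts, and in its melanoma both held 22411. In each of the other 24 libraries ENSXMAT00000017391 held more, by 3.09% to 3.92%, or 385 to 1550 counts. The excess went with the fish: of the 14 fish with both tissues, 4 had none in either tissue, 10 had it in both, and 0 were split. The rows cannot be taken as separate measurements, and whether the same reads were entered in both was not tested. With ENSXMAT00000017391 in place of HSP90AB1 the log2 fold change between tissues was again -0.77 (edgeR adjusted p = 2.26e-05).

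A similar division was seen for CALR3_1of2 and its nearest row, ENSXMAT00000000627 (r = 0.895). In 14 libraries ENSXMAT00000000627 held 1.42 to 1.60 counts for each count of CALR3_1of2, and in the other 18 it held 1.98 to 2.27, with no library between. Again 0 of the 14 paired fish were split: 6 had the lower ratio in both tissues (11935d, 11935e, 11949a, 11963a, 11963d and 11963g) and 8 had the higher ratio in both. Only 11935e and 11963a were on the lower side for both rows. The 3 skins with most CALR3_1of2 included both kinds, with ratios of 2.12 in 11960a, 1.47 in 11963a and 1.48 in 11963d. With ENSXMAT00000000627 in place of CALR3_1of2 the log2 fold change between tissues was 0.28 (SE 0.19, edgeR adjusted p = 0.322). The span between fish was then 1.96 in place of 1.43 (edgeR adjusted p = 0.00315). The sources used here do not say how reads that match several rows were counted. The part of this division in the fish term of CALR3_1of2 was not tested, and its levels in different fish are uncertain in this respect.

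**Figure D4:**
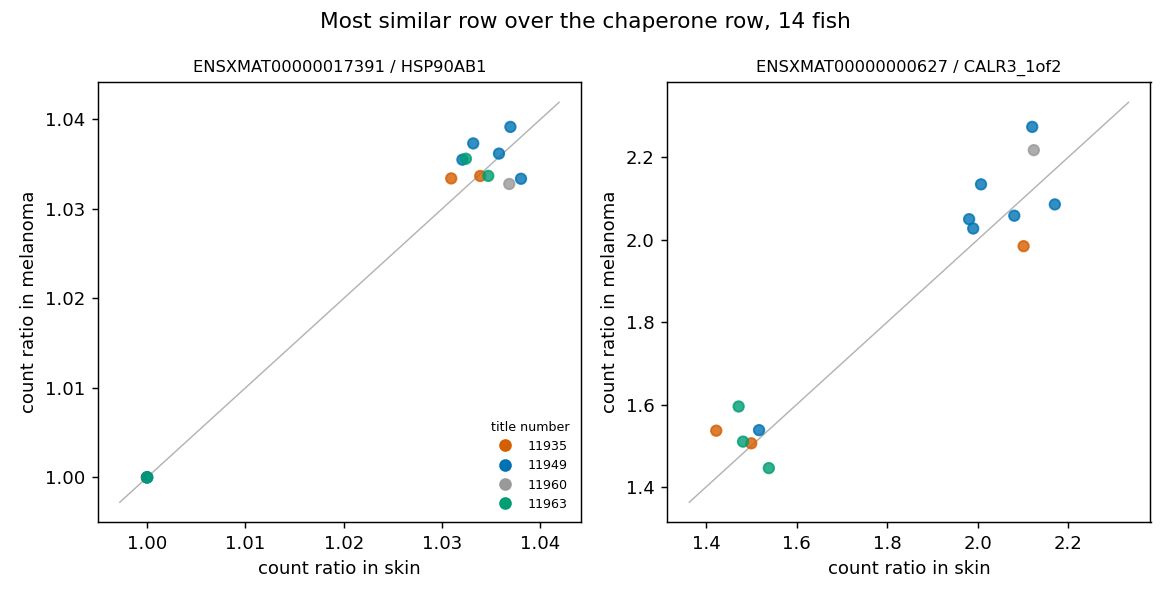
Count of the most similar row divided by the count of HSP90AB1 (left) or CALR3_1of2 (right), in the skin (horizontal) and the melanoma (vertical) of the 14 fish with both tissues, coloured by title number, with a grey line of equality. The 4 fish with equal counts overlie each other at a ratio of 1 on the left, away from 10 fish at 1.03 to 1.04, and on the right 6 fish lie at 1.42 to 1.60 and 8 at 1.98 to 2.27.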

How the data were processed

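RNA-seq libraries of skin and melanoma were used as deposited: a single deposited table holds unnormalized counts, as whole reads per transcript row, for 32 libraries. The submitters' processing notes name the aligner GSNAP, and no source used here gives the genome build, annotation or counting program. All 32 columns were used. The column abbreviating 11960b matched no tumor title, and the only tumor title left without a column carries another number. It was used as a melanoma without a fish and not paired with the skin of 11960b.

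The members and lists were chosen with earlier results of these data known. Tests were run in R 4.3.3 with edgeR 4.0.16 (TMM scaling, filterByExpr low-count filter, quasi-likelihood F-test, no block, Benjamini-Hochberg adjustment over all rows tested, threshold 0.05), limma 3.58.1 and DESeq2 1.42.0. Log2 CPM used a prior count of 2. The 95% intervals are edgeR estimates ± t quantile times SE. Permutation tests enumerated all exchanges, or drew 100000 for correlations over 12 or more samples. Pairing follows the fish names: across rows, deviations from tissue means correlated at r = 0.450 to 0.778 within fish and at most 0.348 between fish. Fits were tested on simulated data. Genes were named by likeness: the 3 symbols and 2 identifiers of highest r, plus list members. Dependence on single libraries was examined, and outlying libraries were sought in 6 groups and 0 found. Figures used matplotlib 3.10.9.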

Additional observations from a re-analysis of the deposited data

How the results depend on the processing

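Counting depth limits neither row: the smallest CALR3_1of2 count, 346, has a counting error of 5.38%. With the fish as a replicate block (28 paired libraries) HSP90AB1 differed between tissues by -0.72 on the log2 scale (edgeR adjusted p = 2.12e-05) and CALR3_1of2 by 0.23 (adjusted p = 0.138, edgeR), and the block changed no call on either row. The 12 alternatives counted here include the most similar row in place of each chaperone row. For HSP90AB1 that row is not a separate measurement, so its pass adds nothing. Over them HSP90AB1 lay between -0.79 and -0.70 and passed in each. CALR3_1of2 lay between 0.17 and 0.29 and passed once, with voom and a random fish effect (0.27, limma adjusted p = 0.0353). The number of rows called was 3419 as reported, 6740 with the block and 7272 with voom. Leaving out each of the 32 libraries kept HSP90AB1 between -0.80 and -0.72 and CALR3_1of2 between 0.16 and 0.32, with no call changed. Within 11963 CALR3_1of2 ran from -0.53 to 0.17 without single libraries, and was 0.0077 with the block. The span of fish means in 11949 alone was 0.86 for CALR3_1of2 and no longer passed. With ENSXMAT00000017391, an alternative chosen after seeing the data, the span for HSP90AB1 was 0.93 and passed (edgeR adjusted p = 0.0389). In TMM-scaled levels the log2 SD ratio of HSP90AB1 ran from 0.68 to 1.09 without single fish. It was 1.01 in 11949 alone (permutation p = 0.0781), and that of CALR3_1of2 was -0.16 there. The distance of 11963 from 11949 for HSP90AB1 was -0.0019 without the low-count filter. In 11949 alone the same-fish r of HSP90AB1 was 0.744 (adjusted p = 0.539 over 9 exact permutation tests). Correlations that did not pass changed sign: both rows across melanomas at 0.550 in 11949 and 0.138 without the 2 farthest libraries, HSP90AB1 with Xmrk differences at 0.440 and 0.102, and, without the farthest samples alone, both rows' differences at 0.0181, CALR3_1of2 with Xmrk differences at 0.298 and HSP90AB1 with Xmrk across melanomas at 0.129. The causes were not tested. The ratio of the rows passed in 11949 alone and without each single fish. It also passed with the most similar rows in place of both, which were chosen after seeing the data.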
